A study of Mus musculus with 2 samples.

Results

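Intergenic long noncoding RNA (lincRNA) loci are, by name, stretches of genome outside annotated genes from which long transcripts without a known protein product have been proposed. The loci described here were all autosomal loci that the array names by position alone, as a mouse mm9 interval followed by F for the forward strand or R for the reverse strand. There were 4429 such loci among the 34763 genes, loci and unnamed probes of the array, 2231 on the forward and 2198 on the reverse strand. They were covered by 15604 probes of 60 nt, 1 to 10 per locus with a median of 3. The array's own annotation calls them lincRNA, but not all lay clear of named genes. A probe of a named gene, coding or noncoding, fell inside 544 of the loci (12.3%) on the same strand and inside 371 (8.38%) on the opposite strand. Some of these genes are themselves noncoding, such as Mir17hg and Pvt1, which share a probe with a locus. Coding genes were not counted apart, so how many of these loci are not intergenic is not given. Their lengths ran from 62 to 7128487 bp, with a median of 10745 bp and quartiles of 1791 and 25940 bp. Of 3387 intervals, 1042 were probed on both strands and 2345 on one strand. The loci were not all independent, since 1203 overlapped an earlier locus on the same strand.

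Long noncoding RNAs are transcribed, capped and often spliced and polyadenylated like messenger RNAs, but they act as RNA. Some build nuclear structures, some guide chromatin or splicing factors, some host small RNAs such as miRNAs or snoRNAs in their introns or exons, and for some the act of transcription affects a neighbouring gene. They are on average less abundant and more restricted to single cell types than messenger RNAs, and most loci defined only by position have no known function. FGF23, fibroblast growth factor 23, is a bone-derived hormone that lowers renal phosphate reabsorption and acts on kidney tubules through FGF receptors with the co-receptor Klotho.

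The cells were mIMCD3, a mouse cell line of collecting duct epithelium from the inner medulla of the kidney, grown in DMEM/F12 with serum. Total RNA of cells given 10 ng/mL FGF23 for 4 h was compared with total RNA of cells without FGF23 on 2 Agilent two-colour arrays, each of which held both RNAs. On array 1 the FGF23 RNA carried Cy3 and on array 2 it carried Cy5, so the dyes were swapped, and every ratio below is FGF23 over unstimulated on the log2 scale. The study asked, per its design text, for roles of FGF23 in tubule cells beyond mineral handling. The labels give no separate cultures or extracts for the arrays, so p-values measure only the spread between these 2 arrays, which may be technical. A single passaged cell line is a limited model of the collecting duct. In a bulk extract, fewer cells with a transcript and less of it per cell cannot be told apart.

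Each array had 62976 spots, none saturated. Of the collecting duct and tubule epithelium markers on the array, 13 of 14 were well above background (among them Aqp2, Cdh1 and Cdh16), against 1 of 6 fibroblast, 3 of 6 macrophage, 2 of 5 endothelial and 3 of 5 proximal tubule markers. None of the 22 kept markers passed the test between conditions (limma), and 1 (4.55%) had an unadjusted p under 0.05, as did 4.68% of all features.

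The probes that carry the findings are printed below, 5′ to 3′ as the array lists them, with mm9 positions. The first 3 belong to the locus with the largest ratio above 0 on both arrays, the next to the locus with the lowest ratio of 1 sign, the next 3 to a pair of lower loci on chromosome 5, and the next 2 to a locus near Crebrf. The last 4 show loci whose transcript has a known identity or neighbour. Capitals mark AATAAA, the common polyadenylation signal, searched on the listed strand only.
Locus chr16:86770170-86874921_R, probe at chr16:86770379-86770438, reverse strand: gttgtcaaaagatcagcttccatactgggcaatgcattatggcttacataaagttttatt
Locus chr16:86770170-86874921_R, probe at chr16:86775123-86775182, reverse strand: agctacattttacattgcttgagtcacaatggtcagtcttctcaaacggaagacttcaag
Locus chr16:86770170-86874921_R, probe at chr16:86775183-86775242, reverse strand: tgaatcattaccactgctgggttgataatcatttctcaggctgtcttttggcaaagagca
Locus chr9:95295459-95301266_F, probe at chr9:95300199-95300258, forward strand: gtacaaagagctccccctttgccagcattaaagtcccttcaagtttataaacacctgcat
Locus chr5:152006587-152008784_R, probe at chr5:152006609-152006668, reverse strand: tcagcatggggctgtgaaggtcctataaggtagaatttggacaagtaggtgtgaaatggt
Locus chr5:152006587-152008784_R, probe at chr5:152006785-152006844, reverse strand: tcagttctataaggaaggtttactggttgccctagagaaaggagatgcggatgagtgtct
Locus chr5:152029557-152030218_R, probe at chr5:152029886-152029945, reverse strand: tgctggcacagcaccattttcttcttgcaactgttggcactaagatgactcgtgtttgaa
Locus chr17:26911032-26912366_F, probe at chr17:26911743-26911802, forward strand: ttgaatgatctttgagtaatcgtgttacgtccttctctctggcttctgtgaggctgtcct
Locus chr17:26911032-26912366_F, probe at chr17:26911873-26911932, forward strand: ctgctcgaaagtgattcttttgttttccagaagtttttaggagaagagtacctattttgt
Locus chr14:115443612-115445950_F, probe shared with Mir17hg at chr14:115445828-115445887, forward strand: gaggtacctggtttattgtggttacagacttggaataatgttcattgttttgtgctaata
Locus chr15:62046023-62082530_F, probe shared with Pvt1 at chr15:62082471-62082530, forward strand: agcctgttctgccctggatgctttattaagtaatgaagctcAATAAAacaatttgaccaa
Locus chr17:39983902-39985688_F, probe shared with Rn45s at chr17:39985407-39985466, forward strand: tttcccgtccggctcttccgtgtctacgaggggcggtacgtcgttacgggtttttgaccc
Locus chr19:5801802-5802597_R, probe at chr19:5802130-5802189, reverse strand: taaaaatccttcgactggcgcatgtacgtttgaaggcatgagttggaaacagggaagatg

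Many of the loci gave signal, but most of it was faint. A probe was kept for the ratios where it was well above background, by the scanner software's flag, on each of the arrays for 1 of the conditions at least. By this rule 4858 locus probes (31.1%) and 2378 loci (53.7%) were kept, against 58.5% of the probes of named genes and 13853 of 23253 named genes (59.6%). All probes were kept for 704 loci, 1 probe for 1181 loci, and none for 2051 loci. The share of loci kept was 35.8% of the 660 loci with 1 probe and 86.7% of the 143 loci with 10 probes, so it moved with the number of probes. The median kept locus had a mean log2 intensity of 7.04 over both dyes and arrays, with quartiles of 6.70 and 7.85, and the median of the other kept features was 9.21. Of the kept loci, 1134 lay under 7 and 37 over 12. The share kept ran from 44.9% of the loci on chromosome 10 to 64.1% on chromosome 11.

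**Figure D1:**
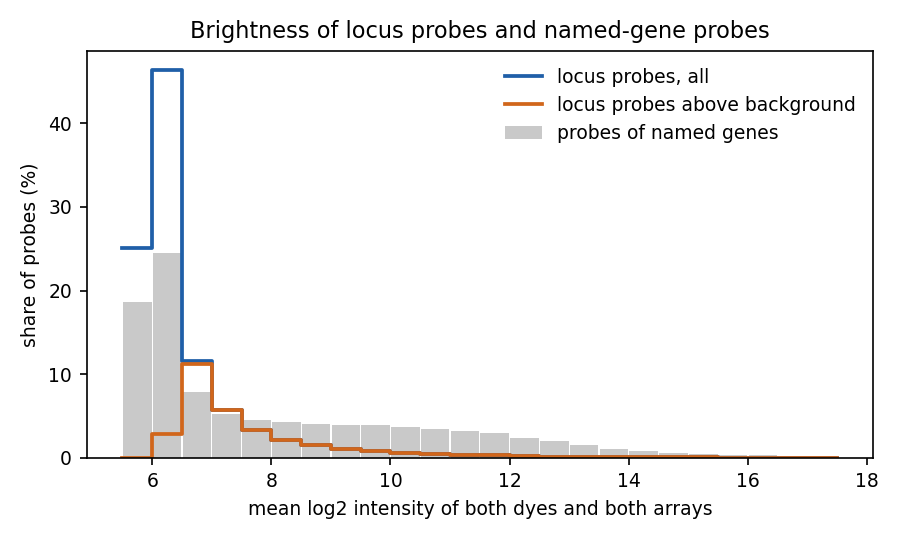
Brightness of probes on the arrays. The x axis is the mean log2 intensity of both dyes and both arrays in bins of 0.5, and the y axis is the share of probes in percent, for all 15604 locus probes (blue line), those well above background (orange line, as a share of all locus probes) and probes of named genes (grey bars). Of the locus probes, 46.3% fell between 6 and 6.5, where 24.5% of named-gene probes lay.

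Detection followed the dye more than the condition. For FGF23 RNA, 29.7% of locus probes were well above background in Cy3 on array 1 and 40.1% in Cy5 on array 2. For unstimulated RNA, the share was 38.9% in Cy5 on array 1 and 30.4% in Cy3 on array 2. Both Cy3 shares lay below both Cy5 shares, whichever RNA the dye marked. The median mean signal of locus probes, background included, was 44 (array 1) and 45.6 (array 2) for Cy3, and 50.5 and 55.7 for Cy5.

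The share of probes kept differed with base composition. Kept locus probes had a mean GC content of 46.1% and the others 43.3%; the probes of named genes differed less, at 42.2% and 41.5%. Of 1989 locus probes over 55% GC, 47.6% were kept, and of 3988 under 40% GC, 26.0% were kept. In loci of 1 kb or longer, 27.8% of 13110 positioned probes lay within 1 kb of the 3′ end and 8.98% within 1 kb of the 5′ end. The share kept was 30.8% within 1 kb of the 3′ end and 32.3% further away. AATAAA stood in 3.92% of locus probes and in 13.4% of named-gene probes. Among locus probes it stood in 4.41% of those kept and 3.69% of the others.

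No locus passed the test between FGF23 and unstimulated cells. With limma and Benjamini-Hochberg adjustment over all 19221 features, 0 loci were higher and 0 lower at an adjusted p under 0.05, and the smallest adjusted p was 0.144. Over all features 16 were higher (0.0832%) and 1 lower (0.0052%). At an unadjusted p under 0.05 there were 29 loci higher and 44 lower, or 3.07%, where 4.68% of all features lay (2.9% higher and 1.77% lower). At 1.5-fold in 1 direction on both arrays there were 0 loci higher and 0 lower, against 5 features higher (0.026%) and 0 lower (0%). The median locus ratio was -0.011, with -0.033 on array 1 and 0.014 on array 2, and the median of all features was -0.0027. Locus means ran from -0.55 to 0.40 with an SD of 0.078, and that of all features was 0.088.

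A p that misses the threshold does not show equal levels, and the intervals depend on the processing. The 95% interval of the log2 ratio lay within 1.5-fold in either direction for 2376 of the 2378 loci, with a half-width of 0.17 at the median standard error. The number was 2244 with an offset of 0, 1925 with the scanner software's log ratio and 0 with median centring in place of loess. This interval leans on the spread pooled over all features, with 1 residual degree of freedom per locus, and an offset of 50 in the background correction draws the ratios of dim loci towards 0. With an offset of 0 the SD of the locus means was 0.14.

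Between the arrays the loci did not keep an order. Pearson's r of both arrays' ratios was -0.18 and Spearman's coefficient -0.071 across the 2378 loci, and r was -0.076 over all features. These are descriptions across loci that share both arrays and their dyes, not tests. The ratio was above 0 on both arrays for 483 loci, below 0 on both for 633 and of opposite sign for 1262. These are 20.3%, 26.6% and 53.1% of the loci, and the shares over all features were 24.0%, 23.6% and 52.4%. Of the 1262 loci of opposite sign, Cy5 was the brighter dye on both arrays for 848 and Cy3 for 414. Over all features these counts were 5954 and 4109. At a size of 0.3 or more on both arrays, 17 loci had opposite signs and 2 the same sign. The matching counts over all features are not given, so these are not read as a trait of the loci. For the 678 loci with 3 or more kept probes r was 0.12.

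**Figure D2:**
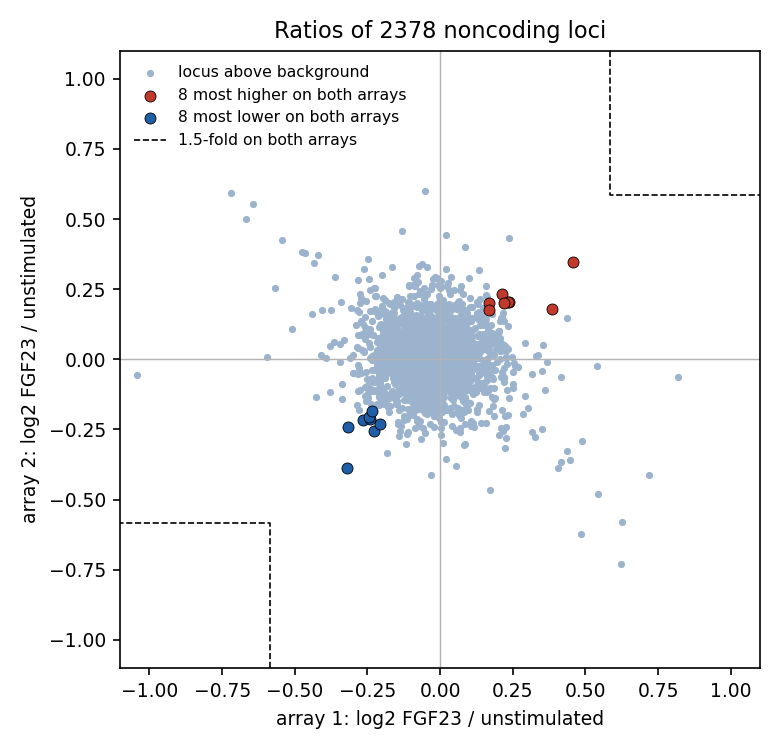
Ratios of the 2378 kept loci on both arrays. The x axis is the log2 ratio of FGF23 over unstimulated on array 1 and the y axis that on array 2, the red and blue points are the 8 loci per direction with the largest ratio of 1 sign on both arrays, and dashed lines mark 1.5-fold on both. No locus lies beyond the dashed lines, and the outlying points lie mainly where the arrays have opposite signs.

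The locus with the largest ratio above 0 on both arrays was chr16:86770170-86874921_R, a reverse-strand interval of 104752 bp with no known function. On array 1 the mean signals of its 3 probes averaged 369 in FGF23 (Cy3) and 500 in unstimulated RNA (Cy5), and on array 2 they averaged 756 in FGF23 (Cy5) and 277 in unstimulated RNA (Cy3). After dye normalization its log2 ratio was 0.46 on array 1 and 0.35 on array 2, a mean of 0.40 ± 0.080 (SD, n = 2 arrays), which is 1.32-fold. It did not pass the test in limma (adjusted p = 0.144). All 3 probes, printed above, lay on the same side on both arrays, at 0.32 and 0.15 for the probe nearest the 3′ end and at 0.54 and 0.40, and 0.51 and 0.49, for the adjoining pair further in. Under an intensity-dependent robust prior in limma its adjusted p was 0.017. Distances to genes are given between the centres of the nearest probes. The nearest named gene on the array was N6amt1, which encodes a methyltransferase, 592428 bp away on the other strand, with a ratio of 0.027 ± 0.015 (SD, n = 2 arrays).

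The locus chr17:41231055-41249764_R had ratios of 0.39 and 0.18 from 1 kept probe, a mean of 0.28 ± 0.15 (SD, n = 2 arrays; limma adjusted p = 0.647). Its nearest named gene, Mmut, the mitochondrial methylmalonyl-CoA mutase, lay 142298 bp away at a ratio of 0.044. The next 3 loci each rested on 1 kept probe. These were chr1:183142656-183163206_F at 0.21 and 0.23 near Wdr26, chr2:75489436-75490163_R at 0.24 and 0.20 near Hnrnpa3, and chr1:85036677-85038530_R at 0.23 and 0.20 near Slc16a14. All 3 were dim, with mean log2 intensities from 6.51 to 6.80, and their nearest kept genes had mean ratios of 0.089, -0.020 and -0.16. Their means of 0.22 each became 0.52, 0.48 and 0.42 with a background offset of 0, and 0.78, 0.65 and 0.56 with the scanner software's log ratio. The locus chr8:87513394-87514107_R, 11531 bp from Junb on the same strand, had ratios of 0.17 and 0.20 from 2 dim probes, and its mean of 0.18 became 0.46 and 0.61 under the same alternatives. Junb, a subunit of the AP-1 transcription factor and an immediate-early gene of growth factor signalling, had 0.040 and 0.097.

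On chromosome 17, a pair of overlapping forward-strand loci stood higher together. The locus chr17:26911032-26912366_F had ratios of 0.22 and 0.20 from 2 of its 3 probes, a mean of 0.21 ± 0.013 (SD, n = 2 arrays; limma adjusted p = 0.901). With the scanner software's log ratio the mean was 0.33. The locus chr17:26911397-26917047_F, named here after its values were seen, had 10 kept probes of 10 and ratios of 0.13 and 0.32, a mean of 0.23 ± 0.13 (SD, n = 2 arrays; limma adjusted p = 0.898). Its probes ran from 0.040 to 0.27 on array 1 and from 0.20 to 0.52 on array 2, all above 0. The same interval on the reverse strand had 2 kept probes of 10 and ratios of 0.15 and -0.0039. Crebrf, which encodes a regulator of the stress factor CREB3, had its only probe 2515 bp from the smaller locus on the same strand, not well above background.

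A locus that holds a named noncoding gene also stood among the higher ones. The probe of Snhg18, a small nucleolar RNA host gene, lies inside chr15:32167516-32174427_R on the same strand and overlaps its probes. The 5 probes of the locus, which overlap one another, gave ratios of 0.17 and 0.18, a mean of 0.17 ± 0.0059 (SD, n = 2 arrays). Single probes of it ran from -0.053 to 0.25 on array 1 and from -0.044 to 0.36 on array 2. Snhg18 itself had 0.27 and 0.092, a mean of 0.18. The forward strand of the same interval had no kept probe.

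The lowest ratio of 1 sign on both arrays belonged to chr9:95295459-95301266_F, with -0.32 and -0.39, a mean of -0.35 ± 0.048 (SD, n = 2 arrays; limma adjusted p = 0.226). With the scanner software's log ratio the mean was -0.60. It rested on 1 of 5 probes, the one printed above, and the other 4 were not well above background. Chst2, a sulfotransferase gene 1736 bp away on the other strand, was not well above background, and U2surp, a splicing gene 57580 bp away, had a ratio of -0.026.

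On chromosome 5, neighbouring reverse-strand loci were both lower. All 3 probes of chr5:152006587-152008784_R were kept, with mean signals on array 1 of 449 in FGF23 (Cy3) and 1131 in unstimulated RNA (Cy5), and on array 2 of 1002 in FGF23 (Cy5) and 572 in unstimulated RNA (Cy3). Its log2 ratios were -0.32 and -0.24, a mean of -0.28 ± 0.053 (SD, n = 2 arrays; limma adjusted p = 0.542). The probes ranged from -0.36 to -0.27 on array 1 and from -0.32 to -0.20 on array 2. The locus chr5:152029557-152030218_R, added after its values were seen, had 1 probe at -0.43 and -0.14, a mean of -0.28 ± 0.21 (SD, n = 2 arrays; limma adjusted p = 0.721). Stard13 was the nearest kept named gene, 164604 bp from the former locus on the same strand, at -0.092 and -0.17. Kl, the gene of the FGF23 co-receptor Klotho, has its probe further along this chromosome at chr5:151795712-151795771. It was not well above background.

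Of the other lower loci, chr4:116791819-116798263_R held a named gene's probe with a like ratio. Its ratios were -0.23 and -0.25, a mean of -0.24 ± 0.020 (SD, n = 2 arrays; limma adjusted p = 0.760), and Btbd19, whose probe lies inside the locus on the same strand, had -0.27 and -0.16. The locus chr4:141527564-141547339_F, the brightest of the lower ones at a log2 intensity of 11.9, had -0.27 and -0.22 from its only probe. Its nearest kept gene, Fhad1, 14051 bp away on the other strand, had 0.35 and 0.36 from 1 of 3 probes (limma adjusted p = 0.222). The signs were thus opposite on both arrays, but that Fhad1 probe was dim, at a log2 intensity of 6.43. The other Fhad1 probes were not well above background and had 0.19 and 0.18, and -0.056 and -0.086. Whether other transcripts bind the probe of this locus was not tested. All 3 probes of chr11:119254413-119296960_F were lower, with ratios of -0.21 and -0.23. Rnf213, a large ubiquitin ligase gene on the same strand, had -0.15 and -0.020 as the average of 2 probes. Its probe inside the locus had -0.011 and -0.14, and the one outside it -0.30 and 0.098. The other 3 loci were dim and rested on 1 probe each, chr11:79549532-79575807_F at -0.23, chr9:65647428-65677009_F at -0.23 and chr4:146233300-146260825_R at -0.21. These became -0.45, -0.48 and -0.58 with a background offset of 0, and -0.60, -0.67 and -1.12 with the scanner software's log ratio. Of their nearest genes, Gm10387 had -0.21 and -0.39, while Trip4 and Zfp600 had means of 0.0067 and -0.058.

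**Figure D3:**
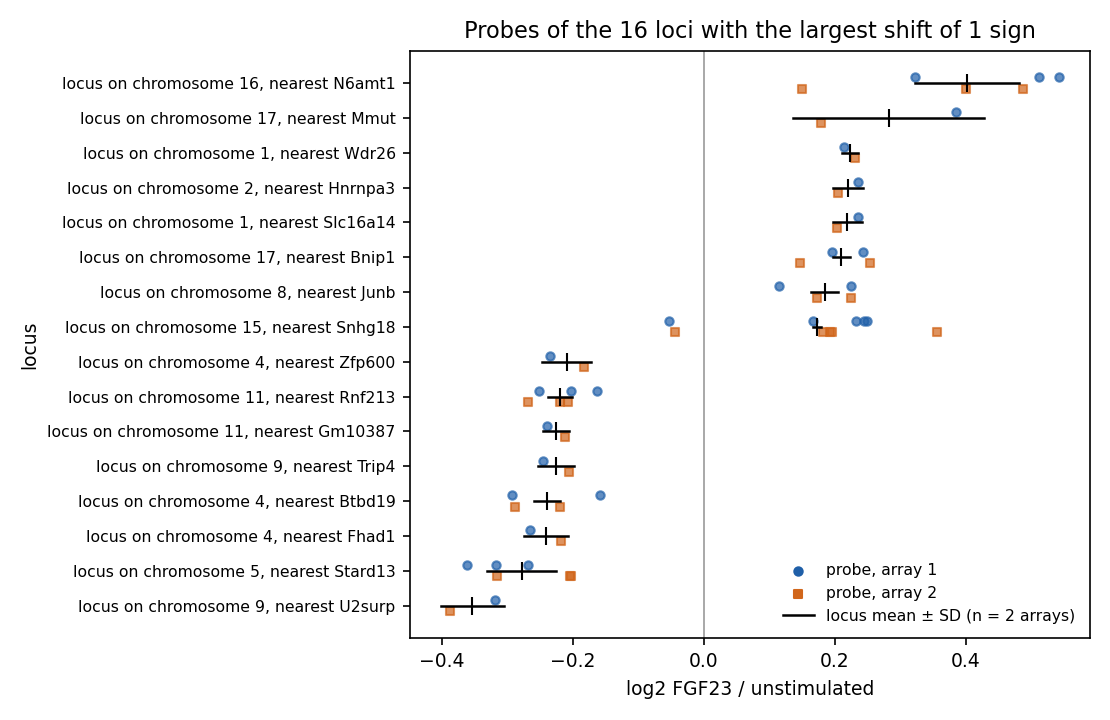
Kept probes of the 16 loci with the largest ratio of 1 sign on both arrays. The x axis is the log2 ratio of FGF23 over unstimulated, each row is a locus named by its chromosome and nearest kept gene, circles are probes on array 1, squares probes on array 2, and the black line is the locus mean ± SD (n = 2 arrays). The locus on chromosome 16 has its 3 probes between 0.15 and 0.54, and 9 of the 16 rows rest on 1 probe.

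The single largest mean ratio, -0.55 ± 0.70 (SD, n = 2 arrays), rested on 1 array. It belonged to chr11:58136882-58143829_R, named after its values were seen, whose 3 probes averaged -1.04 on array 1 and -0.056 on array 2 (limma adjusted p = 0.637). The mean signal of its probes was 347 in unstimulated RNA on array 1, and 80.6, 131 and 82.8 in the other 3 channels. Without array 1 the locus had a ratio of -0.056.

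The probes of 1 locus were also compared in sign over both arrays. Of the 678 loci with 3 or more kept probes, 19 had every kept probe above 0 on both arrays and 25 had every kept probe below 0. For 327 of these loci (48.2%) the locus ratios of the arrays already had opposite signs, so the counts do not measure disagreement between probes alone. The share over all features is not given here. With 5 or more kept probes, 4 of 172 loci had all above 0 and 2 all below. The median SD between the probes of a locus was 0.062, and the SD of the means of these 678 loci was 0.070. Among the 6 loci with 5 or more probes were chr17:26911397-26917047_F, described above, and chr17:39960567-39992817_R, in the ribosomal RNA repeat.

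The kept loci over the ribosomal RNA repeat lay below 0. Rn45s encodes the 45S precursor of ribosomal RNA, and 6 loci lie over it on chromosome 17, 3 on each strand. All 6 were kept and all 6 were below 0 on both arrays, with means from -0.12 to -0.094. The locus chr17:39960567-39992817_F had -0.15 and -0.066 from 4 probes, and chr17:39960567-39992817_R had -0.15 and -0.087 from 5. Rn45s itself, on the forward strand, had -0.11 and -0.056. None passed the test in limma (adjusted p = 0.9998 for each of the 6). They overlap one another and so are not separate measurements of the repeat.

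The brightest loci did not share a direction. Whether transcripts of other genes, coding ones included, also bind their probes was not tested. The brightest, chr11:22681800-22707775_R, had a mean log2 intensity of 16.6 and ratios of -0.019 and 0.046. The locus chr7:108209996-108216032_R, whose probe the array gives no position, had 16.5 and ratios of 0.050 and 0.012. The locus chr17:48068261-48087905_F had ratios of -0.045 and 0.33, a mean of 0.14 ± 0.26 (SD, n = 2 arrays), chr6:116123643-116124550_F had -0.090 and 0.11, and chr17:17481706-17482457_R had -0.12 and 0.10. In these 3 the arrays had opposite signs, with Cy5 the brighter dye on both. The same held for chr19:5801802-5802597_R, at -0.51 on array 1 and 0.11 on array 2, a mean of -0.20 ± 0.44 (SD, n = 2 arrays). That locus lies on the same strand as and 6297 bp from the nearest probe the array calls NEAT2, an older name of Malat1, the abundant nuclear RNA of splicing speckles. The NEAT2 probes had -0.039 and -0.079, and the probe named Malat1 had 0.021 and -0.050. Whether the locus belongs to the Malat1 transcript was not analysed.

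Detection was also counted by strand. Of the 1042 intervals probed on both strands, 432 (41.5%) were kept on both, 425 (40.8%) on 1 strand (189 forward and 236 reverse) and 185 (17.8%) on neither. The share that strands kept independently would give is not stated, so the 41.5% is not read as joint detection. Intervals probed on 1 strand were kept in 1089 of 2345 cases (46.4%). For 101 pairs of probes that are exact reverse complements, the count was 10 kept on both strands, 40 on 1 and 51 on neither. The ratios of opposite strands were nearly unrelated, with r of 0.057 and Spearman's coefficient of 0.079 over the 432 intervals and the same sign in 229 (53.0%).

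The brightest intervals with both strands kept had the following ratios. The locus chr11:22681800-22707775_F had ratios of -0.0043 and -0.077, against -0.019 and 0.046 on the reverse strand. The locus chr7:108209996-108216032_F had 0.077 and 0.10, against 0.050 and 0.012. The locus chr12:119825125-119850750_F had -0.015 and -0.051, and its reverse strand -0.19 and 0.032. The differences between strands were not tested.

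Within 1 kb and on the same strand, loci and named genes had like ratios where the gene's probe lay inside the locus. Of 2370 kept loci with a positioned probe, 1570 lay within 50 kb of a kept probe of a named gene, measured between probe centres. The median distance over all 2370 was 24246 bp, and 446 lay over 100 kb away. Over the 1570 pairs of a locus and its nearest gene, r was 0.13. Within 1 kb and on the same strand, r was 0.61 over 154 pairs, and on the opposite strand 0.17 over 70 pairs.

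Most of the 154 pairs were not separate loci and genes. In 64 of them the probes of locus and gene overlapped or were identical, and r was 0.73. For these 64, r was 0.33 for the locus on array 1 with the gene on array 2, and 0.19 for the reverse. In 67 further pairs the probes did not overlap but the gene's probe lay within the locus, and r was 0.56. For these 67, r was 0.31 for the locus on array 1 with the gene on array 2, and 0.40 for the reverse. In the remaining 23 pairs, with the gene's probe outside the locus, r was -0.013. Position inside the locus did not go with like ratios at longer distances. For same-strand pairs without overlap and with the gene's probe inside the locus, r was -0.010 over 53 pairs at 1 to 5 kb. At 5 to 50 kb it was 0.16 over 57 such pairs. Up to 50 kb on the same strand, with the gene's probe outside the locus, r was 0.084 over 688 pairs. The split by overlap and by position was added after the values were seen. These values describe pairs that share both arrays, and a gene can be nearest to several loci.

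**Figure D4:**
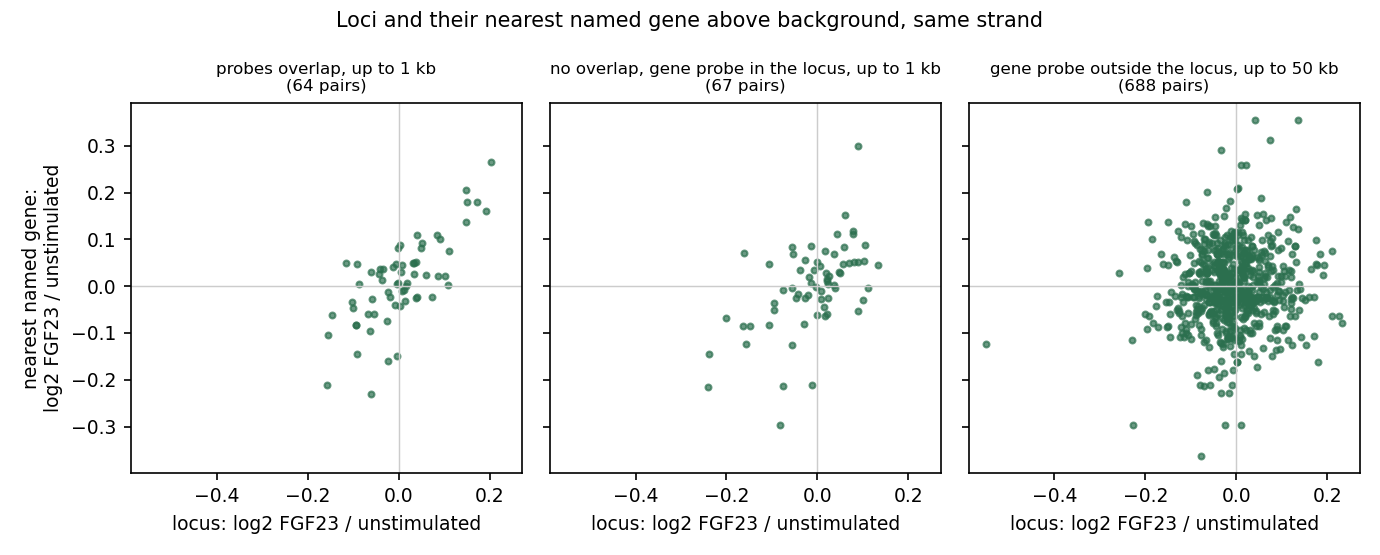
Loci and their nearest named gene above background on the same strand. The x axis is the locus's and the y axis the gene's log2 ratio of FGF23 over unstimulated (mean of 2 arrays), each point is a pair, and the panels hold 64 pairs with overlapping probes, 67 without overlap but with the gene's probe inside the locus (both up to 1 kb apart) and 688 with the gene's probe outside the locus, up to 50 kb apart. Points rise together in the left and middle panels, with r of 0.73 and 0.56, and form a round cloud in the right panel, with r of 0.084.

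Several loci with larger ratios hold a probe of a noncoding host gene, and are named after their values were seen. The pairs were picked from those up to 1 kb apart because locus and gene both had a larger mean ratio. Likeness within these pairs is thus not a separate result. The locus chr1:162965309-162970704_F, which holds a probe of Gas5, had -0.34 and -0.14, and Gas5 had -0.22 and -0.064. Gas5 is a noncoding host of small nucleolar RNAs whose transcript is degraded upon translation. The locus chr14:115443612-115445950_F lies over Mir17hg, the primary transcript of the miR-17-92 cluster. It had -0.18 and -0.14, a mean of -0.16 ± 0.028 (SD, n = 2 arrays) with all 3 probes below 0 on both arrays, and the Mir17hg probe had -0.25 and -0.18. Another locus across the same position, chr14:115423660-115463160_F, had -0.057 and 0.031 from 4 kept probes of 7. The locus chr6:31115515-31168433_R, with a probe overlapping that of Lncpint, a p53-linked noncoding gene, had 0.047 and 0.25, and Lncpint had 0.21 and 0.20. The locus chr4:131905739-131910814_R, which holds the probe of Snhg3, had -0.57 and 0.25, and Snhg3 had -0.060 and -0.19, so here the arrays disagreed.

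Some loci share probe positions with protein-coding genes, and the pairs below were picked in the same way. The locus chr17:34018371-34019394_R, with a probe overlapping that of Kifc1, a minus-end kinesin of the mitotic spindle, had 0.35 and 0.050, and Kifc1 had 0.47 and 0.057. In both the ratio came mainly from array 1. The locus chr5:122048289-122068947_R, with a probe overlapping that of Acad12, an acyl-CoA dehydrogenase family gene, had 0.16 and 0.22, and Acad12 had 0.16 and 0.16. No locus or gene of these pairs passed the test. Of those around Gas5, Mir17hg, Lncpint, Snhg3, Kifc1 and Acad12, the smallest adjusted p was 0.868 in limma, for the locus over Gas5.

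The measurement error of 1 probe could be read from probes placed on the array more than once. For 74 locus probes the same 60 bases stood under another name as well, a named gene in 41 cases, and both spots were kept in 37. Across these 37 pairs the SD of the difference between identical probes was 0.11 on each array and 0.071 for the mean of both arrays. For a single probe this is an SD of 0.051, and the means of these 37 locus probes had an SD of 0.092. The median difference of the means was 0.046 and the largest 0.17. Pearson's r of the means was 0.71, and it was 0.83 over 18 pairs with a log2 intensity of 8 or more and 0.53 over 19 dimmer pairs. The Mir17hg pair, whose sequence is printed above, gave means of -0.19 and -0.21. The Rn45s pair gave -0.068 and -0.093, and the Pvt1 pair, a noncoding gene next to Myc, gave -0.059 and 0.018, with opposite signs.

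**Figure D5:**
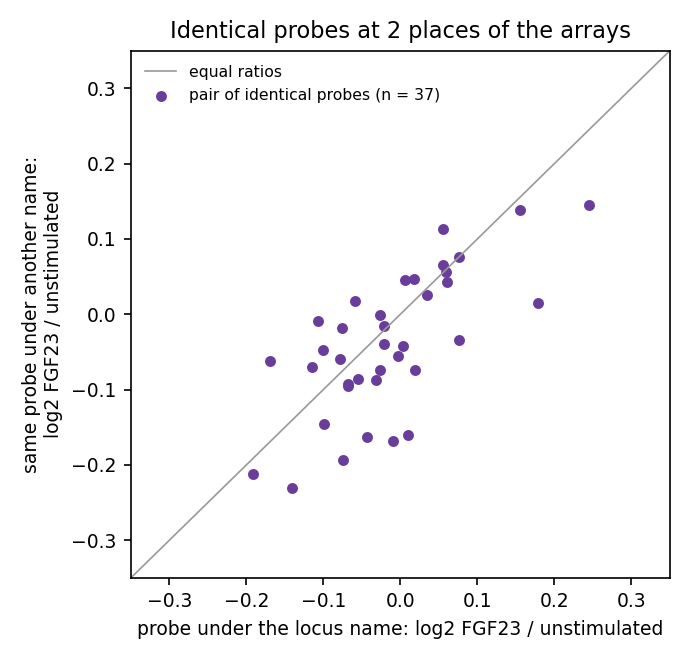
Identical probes at 2 places of the arrays. Each of the 37 points is a probe whose 60 bases were spotted under a locus name and under another name, the x axis is the log2 ratio of FGF23 over unstimulated (mean of 2 arrays) under the locus name and the y axis that under the other name, and the grey line marks equal ratios. The points follow the line with r of 0.71, and the largest distance between a pair is 0.17.

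Loci well above background in 1 condition only were listed. The share over all features under this rule is not given, so the counts are not read as few or many. There were 2 loci above background on both arrays with FGF23 and on neither without it, chr12:25852471-25852681_F and chr8:37612672-37614507_R. Their ratios were 0.37 and 0.35 on array 1 but -0.0096 and -0.043 on array 2, so the arrays did not show 1 direction. Averaged over both arrays their levels were 1.13-fold and 1.11-fold brighter with FGF23. These folds are estimates and not lower limits of a difference. The dimmer side was, per array, the higher of the probe's own level and the lowest signal of any probe well above background. The reverse held for 6 loci, led by chr1:52706748-52712402_R at 1.16-fold and chr13:112207480-112213280_R at 1.15-fold, with ratios below 0 on both arrays in each. In 2 of the 6, chr15:90156889-90184564_F and chr8:72077827-72109034_R, the ratio was above 0 on array 1. All 8 rested on 1 kept probe with a log2 intensity near the lowest that was kept, from 6.32 to 6.39, and none passed the test in limma (smallest adjusted p = 0.938).

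Noncoding RNA genes with established names did not pass the test either. Of 42 listed, 33 were on the array and 25 were kept, and 0 passed, with a smallest adjusted p of 0.844 in limma and 3 genes (12%) at an unadjusted p under 0.05, where 4.68% of all features lay. Their median ratio was -0.059, against -0.0027 over all features, with 5 (20%) above 0 on both arrays and 10 (40%) below, where the shares of all features were 24.0% and 23.6%. The largest ratios were those of Mir22hg, the host of miR-22, at -0.30 and -0.17, of Mir17hg, of Lncpint and of Snhg1, at -0.091 and -0.23. The brightest were Snhg6, at 0.16 and -0.094, and Neat1, the scaffold of nuclear paraspeckles, at 0.21 and -0.0037. Snhg genes host small nucleolar RNAs, and those kept from the list did not share a direction. The means over both arrays were -0.16 for Snhg1, -0.12 for Snhg3, -0.14 for Snhg5, -0.093 for Snhg7, -0.067 for Snhg12 and 0.035 for Snhg6. Snhg18, outside the list, had a mean of 0.18.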

How the data were processed

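The mean signal and background median per spot and dye are intensities in linear scanner units, deposited as the scanner software Feature Extraction 11.5.1.1 wrote them, per the file headers. The deposited log10 ratio of Cy5 over Cy3 was background-subtracted and dye-normalized by that software, per the file headers, and served as an alternative. Probe positions are on mm9, per the file headers. No genome of that build was used, so exon or intron positions were not analysed here.

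Mean signals were corrected with normexp (offset 50) and normalized by loess within each array in limma 3.58.1 (R 4.3.3), with control spots at weight 0 and outlier spots (189 and 201) left out. Ratios were turned to FGF23 over unstimulated. Of 55681 probes, 26943 were kept. Kept probes of a locus or gene were averaged, and gene symbols were updated through RefSeq accessions of GRCm38.p6 for 28026 matching probes, of which 1651 were renamed. The test was lmFit and eBayes on both arrays, with Benjamini-Hochberg adjustment over 19221 features and a threshold of 0.05. The script was tested on simulated data. The number of arrays limits the precision, and no source used here names batches of culture or labelling.

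The loci named were, in each direction, the 8 whose smaller ratio of the arrays was largest, the 6 brightest, the 4 brightest pairs of strands and up to 5 per direction seen in 1 condition only. Loci on chromosome 18 were counted and not named. The members, lists and rules were chosen with earlier results of these data known. Alternatives were the software's log ratio, an offset of 0, median centring, no filter or a stricter one, the brightest probe, an intensity-dependent robust prior, a 2-fold threshold, other detection rules, a window of 100 kb and each array alone.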

Additional observations from a re-analysis of the deposited data

How the results depend on the processing

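No locus past the test, higher or lower, was the result under every alternative run except the intensity-dependent robust prior, which called 1 locus higher (chr16:86770170-86874921_R, adjusted p of 0.017 in limma). Over all features, 55 of 19221 passed under that prior in either direction. With the software's log ratio, an offset of 0 or median centring, 0 of the 19221 features passed. Under these settings the absence of loci thus says nothing about the loci in particular. At 1.5-fold on both arrays, the scanner software's log ratio gave 7 loci lower, each from 1 kept probe. On single arrays the counts were 2 to 4 higher and 2 to 5 lower. The matching counts over all features are not given, so these are not read as a trait of the loci. The correlation between arrays was -0.082 with the software's log ratio, -0.12 with an offset of 0, -0.77 with median centring and -0.053 without a filter. That between a locus and its nearest gene was 0.074 with the software's log ratio and 0.033 to 0.096 on single arrays, and it was 0.095 without pairs whose probes overlap, an alternative chosen after seeing the data. The ratios of the 16 higher and lower loci described were 1.02 to 2.79 times as large with an offset of 0 (7 of them over 1.5 times) and 1.01 to 5.36 times with the software's log ratio (9 over 1.5 times). Over other processing the median locus ratio lay between -0.028 and -0.0012, with -0.033 for array 1 alone and 0.014 for array 2 alone. Among named loci the mean turned to -0.020 for chr11:22681800-22707775_R, -0.0021 for chr7:108209996-108216032_R and -0.023 for chr6:116123643-116124550_F with median centring, and to 0.010 for chr17:17481706-17482457_R with the brightest probe. Where a value moved, the cause was not tested. The count of kept loci was 2132 under the stricter rule and 3104 under the looser one. Each array holds both RNAs, so the ratio within an array is itself the paired comparison and no further block was fitted. Signal near background limits most loci.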

Other observations

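Loci of the X chromosome, which the rule on autosomes left out, were measured too. Of 178 such loci with 577 probes, 79 were kept, 0 passed the test in limma (smallest adjusted p = 0.900) and 5 (6.33%) had an unadjusted p under 0.05, against 4.68% of all features. Neighbouring loci on opposite strands were among those with the largest ratios of 1 sign, chrX:34354757-34357195_R at -0.20 and -0.17 on the arrays and chrX:34360500-34388500_F at 0.29 and 0.14, each from 1 kept probe.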
